A study of Bos taurus with 48 samples.

Results

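Liver of dairy cows at 28 d of lactation was compared with liver of the same cows at 7 d of lactation on 12 of the 48 arrays of the study, which are the arrays whose 2 channels held RNA of the same treatment on different days. These 12 arrays came from 8 of the 32 cows, arranged in 4 pairs with 3 arrays a pair, so that each treatment was represented by 1 pair. The genes that stood out between 28 d and 7 d included SQLE of cholesterol synthesis, APOC2 of the lipoproteins, GNMT of methionine metabolism, the transferrin receptor TFRC, the metallothionein MT1E and the respiratory chain subunit COX5A, each with a positive value of 28 d minus 7 d in all 4 cow pairs, and ZNF836, GSTT4 and EMCN, each with a negative value in all 4, on a reading of the array ratio whose direction is not settled. No gene passed a test adjusted for the 13405 genes tested, and the values of the 4 cow pairs correlated weakly across genes.

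All cows were grazing dairy cows of mixed breed from which liver was taken by needle biopsy at −7, 7 and 28 d from calving. The 4 groups differed in condition and in feeding before calving. B5F125 cows were in optimal condition (BCS 5) and were offered 125 % of their estimated energy requirements for 3 weeks before calving, and B5F75 cows were in the same condition and were offered 75 %. B4F125 cows were thin (BCS 4) and were offered 125 %, and B4F75 cows were thin and were offered 75 %. All groups grazed, none was left without a set feeding level before calving, and the values for a treatment rest on 2 cows. Each cow gave 3 biopsies and kept its dye on the 3 arrays of its pair, so a pair yields 1 value of 28 d minus 7 d, from which the dye and the constant difference between the 2 cows cancel.

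In early lactation the liver of a ruminant has to make nearly all of the glucose that the udder takes up, from propionate, lactate, glycerol and amino acids. At the same time it takes up fatty acids released from adipose tissue, which it oxidises, turns into ketone bodies or stores and exports as triglyceride. Calving is also known for a burst of acute phase proteins and a drop in IGF1, both of which fade over the following weeks.

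Signs have to be read with one reservation. The deposited values are log2 ratios of the 2 channels, and neither the labels nor the methods say which channel is the numerator. All signs below hold with the ratio read as Cy5 minus Cy3, where a positive value means a higher level at 28 d than at 7 d. With the other reading every sign turns, a positive value means a lower level at 28 d, and sizes, standard errors, p-values and the number of genes called stay as they are. The words "positive" and "negative" are therefore used in place of a direction.

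The 12 arrays held 43803 spots each. Between 11.59 and 20.77 % of the spots were blank, and the SD of the centred log2 ratios ran between 0.741 and 1.338, the highest on the array that set 28 d against −7 d in the B4F75 pair. Of the ratios, 96.3 % were quotients of 2 whole numbers, the larger under 5000, within a relative tolerance of 5e-10, against 0.385 % after a random shift of the values, and the other ratios needed larger numbers. The larger number was taken as a lower bound of the brighter channel's intensity. Between 41.01 and 47.49 % of the values of an array had a bound under 30 and are called dim here. The labels give a lower mean RNA integrity at 7 d than at 28 d over the cows of the study, and the part of this in the results was not tested. The p-values rest on the residual spread of the 12 arrays (9 residual degrees of freedom), moderated across genes, with a cow pair correlation of 0.09. The spread between the 4 pairs, 1 of each treatment, enters them only in part.

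With the thresholds of the study's methods, an unadjusted p no higher than 0.01 and a fold change (FC) no smaller than 1.5, 145 of 13405 genes were called between 28 d and 7 d (1.08 %). Of these, 93 were positive (0.694 %) and 52 were negative (0.388 %), and with the other reading of the ratio 52 would be positive and 93 negative. The FC of the positive genes ran between 1.51 and 4.96 with a median of 1.96, and that of the negative genes between 1.53 and 4.15 with a median of 1.71. In limma with Benjamini-Hochberg adjustment 0 genes had an adjusted p under 0.05 and the smallest adjusted p was 0.611, so no gene named below passed it. An unadjusted p under 0.05 was found for 847 genes, or 6.32 % of those tested. The split of signs depended on the arrays used and on their scaling. The 4 arrays that hold both days gave 62 positive and 103 negative genes, and on all 12 arrays there were 77 positive and 67 negative genes in the values as deposited, 84 and 62 after scaling to the same spread, and 71 and 64 after lowess on the recovered intensities, which was added after seeing the data. In bulk tissue fewer cells of a type and less RNA per cell cannot be told apart, which holds for all results below.

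Most of the called genes were dim. The median bound lay under 30 for 110 of the 145 called genes (75.9 %), against 5371 of the 13405 genes tested (40.1 %). Genes under 30 were called in 2.05 % of cases and genes at or over 30 in 0.436 %, and the median standard error of the log2 difference was 0.301 under 30 and 0.198 at or over it. At or over 30, 21 positive and 14 negative genes were called. With all dim values left out, a choice made after seeing the data, 68 genes were called, 38 of them positive.

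**Figure D1:**
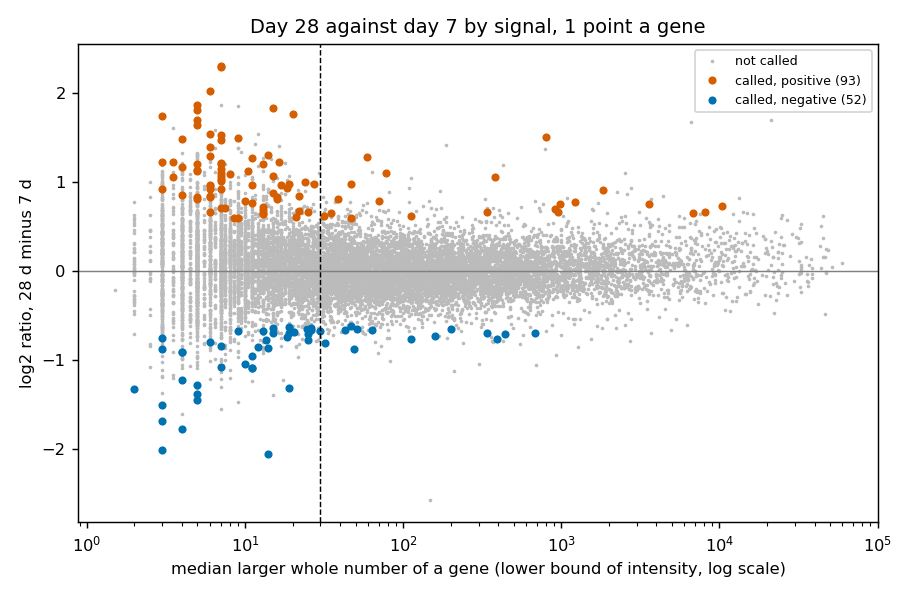
Log2 ratio of 28 d minus 7 d (vertical axis, Cy5 minus Cy3 reading) against the median lower bound of intensity of a gene (horizontal axis, log scale), 1 point for each of 13405 genes. Orange points are the 93 called positive genes and blue points the 52 called negative genes, and 110 of them lie left of the dashed line at 30, where the spread is widest.

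The 4 pairs carried little in common across the transcriptome. Of the 11598 genes with a value in each pair, 893 were positive in all 4 (7.7 %) and 930 were negative in all 4 (8.02 %). Across these genes, which are not independent replicates, the values of pairs correlated between −0.08 and 0.29. The highest value joined the B5F75 and B4F75 pairs, and it was 0.42 over the 8013 genes at or over 30 and 0.55 over the 1297 genes at or over 1000. The B5F125 and B4F125 pairs correlated at −0.02 over all genes, 0.10 at or over 30 and 0.25 at or over 1000. Among the 145 called genes, 91 had a value in each pair, and 85 of these had the same sign in all 4, which the call itself favours.

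Cholesterol and lipoprotein genes gave a pair of called members. SQLE, squalene epoxidase, which oxidises squalene on the way to cholesterol, was at 0.77 in the B5F125 pair, 0.51 in the B5F75 pair, 0.92 in the B4F125 pair and 0.40 in the B4F75 pair. All 4 pairs were positive, and the fit gave 0.65 on the log2 scale (SE 0.20, FC 1.57). It was a bright gene with a median bound of 6786. SQLE stayed called in 10 of 18 alternative analyses and lost the call after lowess, at 0.57. HMGCS1, which makes HMG-CoA in the cytosol, was at 0.22 (SE 0.37), positive in both F125 pairs and negative in both F75 pairs. Over the 25 genes of cholesterol synthesis and sterol sensing the median was 0.03 with 16 positive, against a median of 0.01 with 6992 of 13405 positive over all genes tested.

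APOC2, the activator of lipoprotein lipase carried on lipoproteins, was at 0.15 in the B5F125 pair, 0.83 in the B5F75 pair, 0.89 in the B4F125 pair and 1.14 in the B4F75 pair. It was positive throughout and lowest in the B5F125 pair, and the fit gave 0.75 (SE 0.23). APOC2 stayed called in 12 of 18 alternatives and lost the call after lowess. MTTP, which loads lipid onto apolipoprotein B, was at 0.32 (SE 0.18), APOB at −0.08 (SE 0.20) and APOA1 at 0.38 (SE 0.25), none of them called. The 23 genes of apolipoproteins and lipoprotein assembly had a median of 0.03 and 14 positive members.

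Genes of gluconeogenesis and fatty acid oxidation gave no call. Of the bright genes of gluconeogenesis, PC, pyruvate carboxylase, was at 0.50 (SE 0.30), PCK1, the cytosolic phosphoenolpyruvate carboxykinase, at −0.25 (SE 0.26) and its mitochondrial counterpart PCK2 at 0.00 (SE 0.24). All 14 genes of gluconeogenesis and lactate use together had a median of 0.00 with 7 positive, none called.

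GPD2, the mitochondrial glycerol-3-phosphate dehydrogenase that links glycerol and glucose metabolism, was called at −1.08 (SE 0.26). It was negative in all 4 pairs, at −0.28 in B5F125, −1.32 in B5F75, −0.69 in B4F125 and −2.02 in B4F75, with a median bound of 7. The 34 genes of fatty acid oxidation had a median of −0.04 with 12 positive and none called. CPT1A, the carnitine transferase that admits long-chain fatty acids to mitochondria, was at −0.01 (SE 0.16), with the pairs between −0.21 and 0.17. CPT1B, known as the muscle form of that transferase, was at 1.22 in B5F125, 0.35 in B5F75, 0.95 in B4F125 and 0.23 in B4F75. It was positive in every pair with a fit of 0.69 (SE 0.24), which was not called, and it was called at 1.28 with dim values left out.

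Ketone body genes had a negative median in each of the 4 pairs. Their 7 members had a median of −0.21 with 2 positive and none called. Of the 43 lists, 5 had medians of 1 sign in all 4 pairs, and how many would without a change was not tested. BDH2, a hydroxybutyrate dehydrogenase, was at 0.07 (SE 0.24). PDK4, the kinase that shuts pyruvate dehydrogenase in fasting, was at −0.61 in B5F125, −0.41 in B5F75, −0.29 in B4F125 and −0.88 in B4F75. It was negative in every pair, with a fit of −0.55 (SE 0.21) that met neither the p nor the FC threshold. With dim values left out PDK4 was called at −0.66. Of the 20 PPARA and fasting targets 7 were positive, with a median of −0.07.

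Lipogenic genes had values of both signs. THRSP, a thyroid-hormone-responsive protein of lipogenic tissue chosen after its values were seen, was at −1.19 in B5F125, −0.84 in B5F75, −0.63 in B4F125 and −1.82 in B4F75. Every pair was negative, and the fit of −1.12 (SE 0.54) was not called. SCD, stearoyl-CoA desaturase, was at −0.77 (SE 0.38), negative in 3 pairs and positive in B4F75 at 0.31. FASN, fatty acid synthase, was at 0.09 (SE 0.27), and the 30 genes of fatty acid and triglyceride synthesis had a median of 0.07 with 17 positive.

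Amino acid genes included 2 called members. GNMT, glycine N-methyltransferase, which disposes of surplus methyl groups, was at 2.29 in the B5F125 pair, 0.31 in the B5F75 pair, 0.76 in the B4F125 pair and 0.88 in the B4F75 pair. The B5F125 pair lay far above the others, all were positive, and the fit was 1.06 (SE 0.34, FC 2.08). GNMT stayed called in 11 of 18 alternatives. SLC7A5, the light chain of a transporter for large neutral amino acids, was at 1.42 in B5F125, 0.51 in B5F75, 1.30 in B4F125 and 0.63 in B4F75 with a fit of 0.97 (SE 0.25), at a median bound of 11. Both F125 pairs were higher than both F75 pairs for SLC7A5, and the difference by feeding of 0.79 was not called.

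The list to which SLC7A5 belongs, serine, asparagine and aminoacyl-tRNA genes of the amino acid response, had 12 of 18 members positive and a median of 0.21. ASNS, asparagine synthetase, was at 0.28 (SE 0.38), with 1.61 in the B4F125 pair and −0.48 in B5F75. The 11 genes of the urea cycle had a median of −0.23 with 3 positive and none called, and CPS1, which fixes ammonia in the cycle, was at −0.25 (SE 0.25). The 22 genes around methionine and glutathione, GNMT among them, had a median of 0.03 with 12 positive.

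Metal-binding and antioxidant genes had, as a list, a positive median in each of the 4 pairs. MT1E, a metallothionein that binds zinc and copper, was at 1.12 in the B5F125 pair, 2.41 in the B5F75 pair, 0.93 in the B4F125 pair and 1.56 in the B4F75 pair. All 4 pairs were positive and the fit was 1.51 (SE 0.47, FC 2.84). MT1E stayed called in 11 of 18 alternatives and lost the call after lowess. MT1A and MT2A, chosen after their values were seen, were also positive in all pairs, at 1.70 (SE 0.60) and 0.69 (SE 0.33), but not called. Metallothionein transcripts are nearly identical, and how far their probes share signal was not tested.

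Other members of the antioxidant list were less even between pairs. GPX3, the glutathione peroxidase of plasma, was at 1.24 in B5F125, 0.05 in B5F75, 2.39 in B4F125 and 1.98 in B4F75, with a fit of 1.41 (SE 0.55). SRXN1, sulfiredoxin, chosen after its values were seen, was at 2.09 in the B4F75 pair against 0.36 to 0.42 in the other pairs. SOD2, the mitochondrial superoxide dismutase, was at −0.30 (SE 0.21) and CAT, catalase, at −0.36 (SE 0.29). Over the 24 genes of the list the median was 0.15 with 16 positive, 8 of them positive in all 4 pairs, and 1 called.

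GSTT4, a glutathione S-transferase, was called at −0.76 (SE 0.24), with −0.87 in B5F125, −0.61 in B5F75, −0.43 in B4F125 and −1.14 in B4F75. It stayed called in 10 of 18 alternatives and lost the call after lowess. It was negative in every pair, whereas the 16 glutathione S-transferases together had a median of −0.02 with 7 positive. Cytochrome P450 and phase II genes had 6 of 30 members positive and a median of −0.16, with none called. CYP2E1, which oxidises ethanol and ketone bodies, was at −0.47 (SE 0.36) and CYP3A4, which oxidises many drugs and steroids, at −0.25 (SE 0.17).

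TFRC, the receptor that brings iron-loaded transferrin into cells, was called with its 4 pairs close together. It was at 0.89 in the B5F125 pair, 0.99 in the B5F75 pair, 1.20 in the B4F125 pair and 0.84 in the B4F75 pair, and the fit was 0.98 (SE 0.23, FC 1.98). TFRC was called in 18 of 18 alternatives, with a median bound of 27.5. HAMP, hepcidin, the hormone that blocks iron export, was at 0.30 (SE 0.21), and FTH1, the ferritin heavy chain, at −0.02 (SE 0.17). The 18 genes of iron handling had a median of 0.15 with 12 positive.

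**Figure D2:**
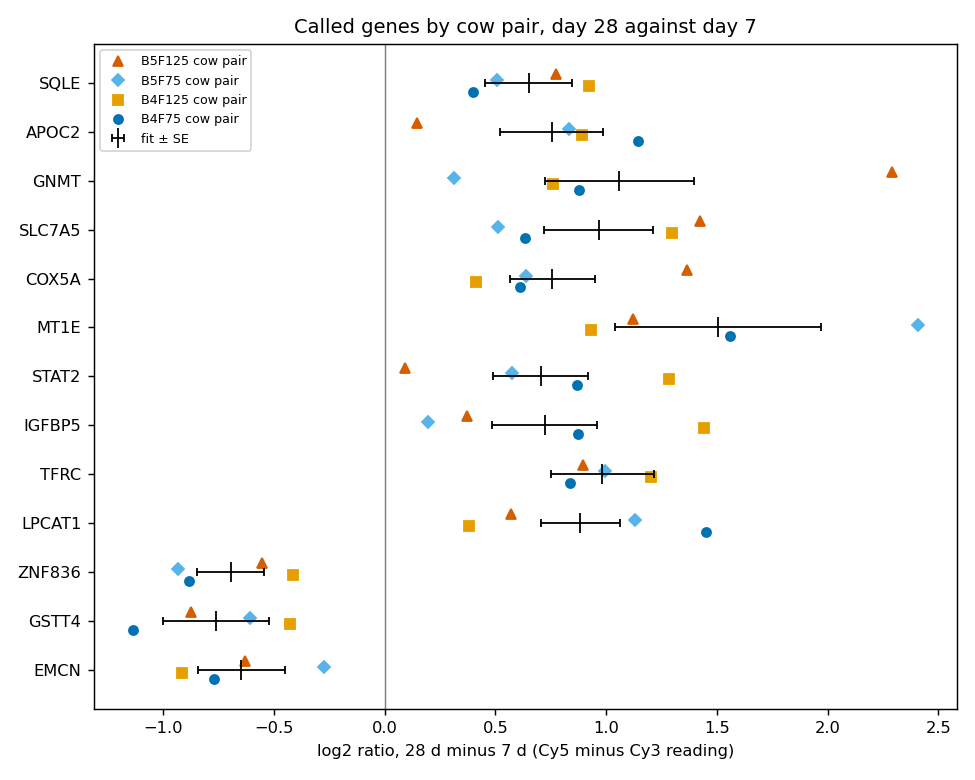
Log2 ratio of 28 d minus 7 d (horizontal axis, Cy5 minus Cy3 reading) of 13 called genes, with 1 marker for each cow pair and the fit with its SE in black. TFRC has its pairs close together, between 0.84 and 1.20, while the pairs of GNMT lie between 0.31 and 2.29.

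Genes of the respiratory chain and of the ribosome were mostly positive in the fit over all pairs, with 1 call among them. COX5A, a subunit of cytochrome c oxidase, was at 1.37 in the B5F125 pair, 0.64 in the B5F75 pair, 0.41 in the B4F125 pair and 0.61 in the B4F75 pair. All pairs were positive, and the fit of 0.76 (SE 0.19, FC 1.69) became 0.42 and was no longer called once dim values were left out. Of 68 genes of oxidative phosphorylation 51 were positive with a median of 0.12, and COX5A was the called member. Their median was −0.08 in B5F125, 0.33 in B5F75, 0.28 in B4F125 and −0.01 in B4F75, with 4 of the 68 positive in every pair, and it was 0.06 with 45 positive after lowess. NDUFS1, a subunit of complex I, was at −0.18 (SE 0.22).

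The cytosolic ribosomal proteins had 67 of 72 members positive and a median of 0.30, the highest among the 43 lists, with none called. The median was −0.19 in the B5F125 pair, 0.43 in the B5F75 pair, 0.39 in the B4F125 pair and 0.59 in the B4F75 pair. The B5F125 pair had the opposite sign to the other 3, and only 9 of the 72 genes were positive in every pair. With lowess on the recovered intensities the median was 0.21 with 64 positive. RPLP0, of the ribosomal stalk, was at 0.39 (SE 0.16) and RPS6, of the small subunit, at 0.07 (SE 0.15). Ribosomal protein genes have many processed copies in the genome, and their share in the signal of these probes was not tested.

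Acute phase genes split the pairs. HP, haptoglobin, which binds free haemoglobin, was at 3.24 in B5F125, 0.37 in B5F75, 3.85 in B4F125 and −0.75 in B4F75. The F125 pairs were far above the F75 pairs, and the fit over all pairs was 1.68 (SE 0.78), not called. SAA3, a serum amyloid A protein, was at 1.55 in B5F125, 1.49 in B5F75, 1.61 in B4F125 and −0.21 in B4F75, so that 3 pairs lay together and 1 apart, with a fit of 1.11 (SE 0.39). LBP, which presents bacterial lipopolysaccharide, was at 0.62 (SE 0.41). The 30 acute phase genes had a median of 0.15 with 22 positive, and of 0.04 with 18 positive after lowess.

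STAT2, a transcription factor of the interferon response, was called at 0.70 (SE 0.22). It was at 0.09 in B5F125, 0.57 in B5F75, 1.28 in B4F125 and 0.87 in B4F75, with both pairs of thin cows above both pairs of cows in optimal condition. The 41 interferon response genes had a median of 0.04 with 22 positive and no further call. ISG15, a ubiquitin-like modifier induced by interferon, was at 0.11 (SE 0.25), with pairs between −0.74 and 1.07.

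In the growth hormone and IGF axis, IGFBP5, a binding protein of the IGFs, was called at 0.72 (SE 0.24). It was at 0.37 in B5F125, 0.20 in B5F75, 1.44 in B4F125 and 0.87 in B4F75 with a median bound of 13. It was called in 5 of 17 alternatives and lost the call after lowess. IGF1, the growth factor that liver secretes under growth hormone, was at −0.39 (SE 0.27), and IGFALS, which holds IGF1 in plasma, at −0.37 (SE 0.61). The 22 genes of the axis had a median of 0.07 with 13 positive.

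Of the 917 genes in the 43 lists, 12 were called (1.31 %), 9 positive and 3 negative, beside 1.08 % of all genes tested.

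**Figure D3:**
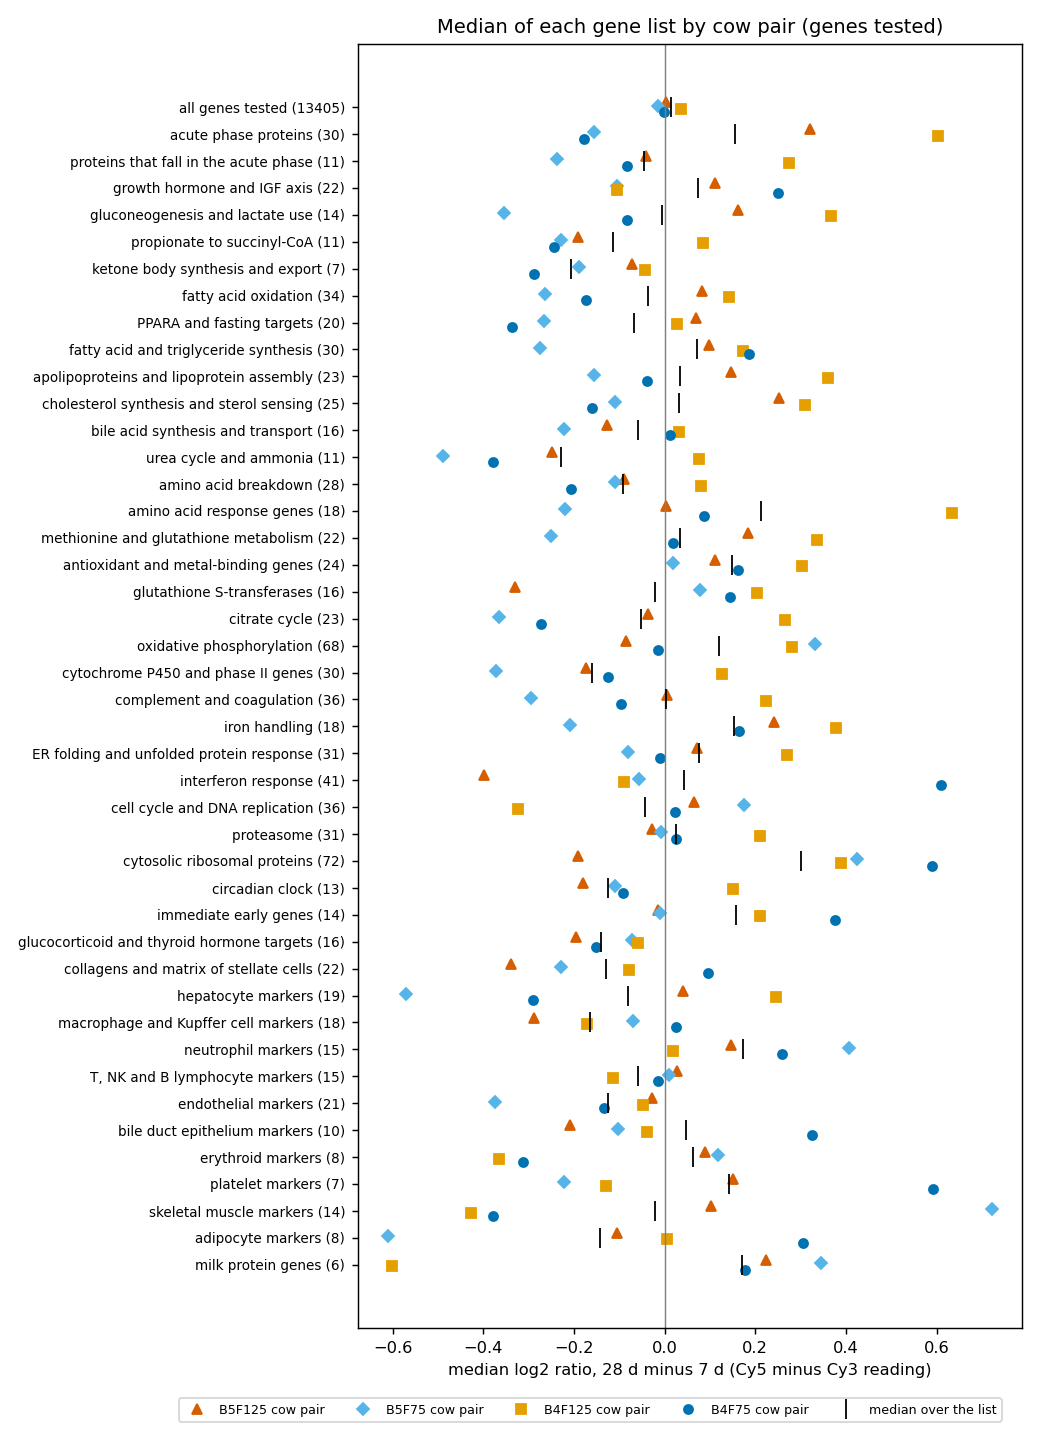
Median log2 ratio of 28 d minus 7 d (horizontal axis, Cy5 minus Cy3 reading) over the tested members of each gene list, whose number stands in parentheses, with 1 marker for each cow pair and a bar for the median over the list. The pairs of most lists lie on both sides of 0, and 5 of the 43 lists have medians of 1 sign in the 4 pairs. Single genes kept 1 sign in all 4 pairs in 7.7 % (positive) and 8.02 % (negative) of cases.

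Among the called genes with the smallest p, many belonged to no list. LPCAT1, which remodels phosphatidylcholine, was at 0.57 in B5F125, 1.13 in B5F75, 0.38 in B4F125 and 1.45 in B4F75, with a fit of 0.88 (SE 0.18). PARD6B, a cell polarity protein, had a fit of 1.29 (SE 0.28), with 2.68 in the B4F75 pair and 0.62 to 1.16 in the others. SRC, a tyrosine kinase, had a fit of 1.13 (SE 0.26), with pairs between 0.77 and 1.61. All 3 genes were positive in every pair, and the median bounds of LPCAT1 and SRC were 15 and 10.5.

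Further genes among the 15 positive ones were FAM178B, IGSF9, DCLK3, TRAM2, NKX2-3, TWIST1, IGDCC4, PPPDE1, TCF7 and TFRC, and 1 had a LOC number only. Their values lay between 0.68 for TCF7, a transcription factor of T cells, and 2.31 for TWIST1, a mesenchymal transcription factor measured on 9 of the 12 arrays. TWIST1 had a value in the B4F75 pair only, and FAM178B only in the 2 pairs of cows in optimal condition. All of the positive genes named here but PARD6B and PPPDE1 had a median bound under 30.

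ZNF836 is a zinc finger protein by its name, which the RefSeq bovine gene table lacks. It was the brightest of the 15 negative genes with the smallest p, at a median bound of 686. It was at −0.55 in the B5F125 pair, −0.93 in the B5F75 pair, −0.41 in the B4F125 pair and −0.88 in the B4F75 pair. Every pair was negative, the fit was −0.70 (SE 0.15), and ZNF836 was called in 16 of 18 alternatives. LRRFIP1, a regulator of nucleic acid sensing, was at −0.66 (SE 0.15) with a median bound of 43, and at −0.39 without a call once dim values were left out.

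Further negative genes were ZPBP, FUCA2, SLCO4A1, KPNA5, PHACTR1, GPD2, TMPRSS11A, ZC3H13, KIAA0020 and TMEM100, and 2 had LOC numbers only. They lay between −0.69 for PHACTR1, a regulator of actin, and −1.78 for SLCO4A1, an organic anion transporter, and all had median bounds under 30. ZPBP, SLCO4A1 and TMPRSS11A were each measured on 9 of the 12 arrays. ZPBP had values in the B4F125 and B4F75 pairs only, SLCO4A1 in B5F75 and B4F125 only, and TMPRSS11A in B4F125 only. Bright called genes outside the rule, chosen after their values were seen, were CRTC3, a coactivator of CREB, at 0.92 (SE 0.28), TMEM86A, a lysoplasmalogenase, at 0.77 (SE 0.21), BOLA3, which serves iron-sulfur cluster assembly, at 0.67 (SE 0.19), and DUSP6, a phosphatase of ERK, at −0.70 (SE 0.22). All 4 genes kept 1 sign over the 4 pairs. CRTC3 lost the call with dim values left out and after lowess, and BOLA3 lost it with dim values left out. TMEM86A and DUSP6 stayed called in both.

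The tissue was checked with 12 lists of cell type markers. The hepatocyte markers ALB, albumin, and TTR, transthyretin, had median bounds of 46614 and 47164. ALB was at −0.48 (SE 0.31) and TTR at −0.02 (SE 0.14) between 28 d and 7 d, and the 19 hepatocyte markers had a median of −0.08 with 3 positive. Their median was 0.04 in B5F125, −0.57 in B5F75, 0.25 in B4F125 and −0.29 in B4F75, so it changed sign with the pair.

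Markers of other cells were partly of 1 sign. Endothelial markers had 3 of 21 members positive, a median of −0.13, a negative median in all 4 pairs and 1 called member. EMCN, endomucin of venous and capillary endothelium, was at −0.63 in B5F125, −0.27 in B5F75, −0.91 in B4F125 and −0.77 in B4F75, with a fit of −0.65 (SE 0.20). It stayed called in 9 of 18 alternatives. PECAM1, present on all endothelium, was at −0.21 (SE 0.19). Macrophage and Kupffer cell markers had 4 of 18 members positive and a median of −0.16, with none called.

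Neutrophil markers had a positive median in all 4 pairs, 0.17 over the list, with 9 of 15 positive and none called. S100A8, S100A9 and S100A12, the calgranulins of neutrophils and monocytes, were at 1.05 (SE 0.49), 0.65 (SE 0.34) and 0.56 (SE 0.32), positive in every pair. The bright globin gene HBA, a marker of red cells, was at 0.45 (SE 0.26), not called. The part of these cell markers in the results on other genes was not tested.

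The same fit placed 7 d against −7 d, and 135 genes were called there (1.01 %), with 0 at an adjusted p under 0.05 in limma. It shares the 7 d samples with the comparison above, so values of opposite sign in the 2 are favoured even without a change, and they are only given side by side. HP at 7 d minus −7 d was at −5.00 in B5F125, −4.10 in B5F75, −3.80 in B4F125 and −1.42 in B4F75. Every pair was negative, with a fit of −3.58 (SE 0.78), beside 1.68 for 28 d minus 7 d. HAMP was at −1.29 (SE 0.21) and LBP at −1.34 (SE 0.41), both called and negative in all pairs, beside 0.30 and 0.62. SAA3 was at −1.17 (SE 0.39), not called, beside 1.11.

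Metabolic genes are given in the same way. PC was at −1.11 (SE 0.30) and IGFBP2, a binding protein of IGF1 chosen after its values were seen, at −1.21 (SE 0.34) for 7 d minus −7 d, both called. SQLE was at −0.60 (SE 0.20) without a call, beside 0.65 for 28 d minus 7 d. IGF1 was at 0.91 (SE 0.27) and called, positive in every pair, beside −0.39. Over the cholesterol synthesis list 2 of 25 genes were positive for 7 d minus −7 d with a median of −0.47, and over the endoplasmic reticulum folding list 4 of 31 with a median of −0.21.

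These signs between −7 d and 7 d are opposite to the course that haptoglobin, serum amyloid A, pyruvate carboxylase and IGF1 are known for around calving. They are given as measured with Cy5 minus Cy3, the reading under which most genes listed for the feeding effect within a day had the listed sign, and the direction of the day comparison is not settled by these 2 facts. With the ratio turned, SQLE, TFRC, APOC2, GNMT and the metallothioneins would be lower at 28 d than at 7 d.

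**Figure D4:**
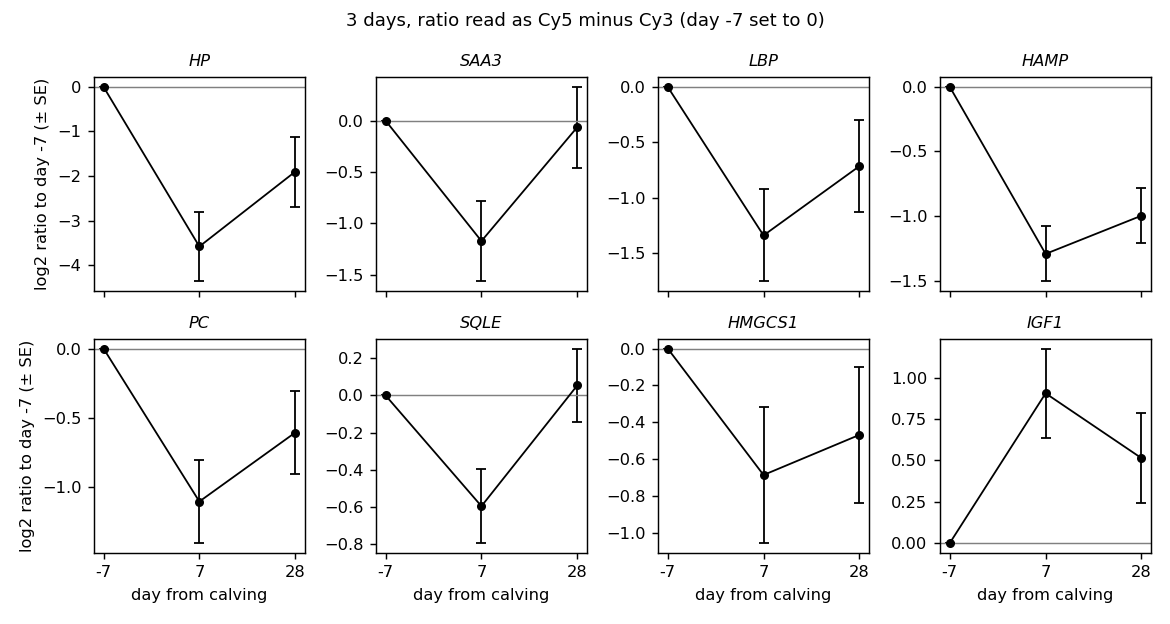
Fitted log2 ratio to day −7 (vertical axes, Cy5 minus Cy3 reading, each with its own scale) at −7, 7 and 28 d from calving (horizontal axes) for 8 genes, with bars of ±SE. At 7 d, 7 of the genes lie below day −7 and IGF1 lies above it, and at 28 d each lies nearer to day −7 than at 7 d.

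Whether the value of 28 d minus 7 d depended on feeding before calving was tested as the difference between the F125 pairs and the F75 pairs. Under the same thresholds 141 genes were called (1.05 %), 62 positive and 79 negative, none with an adjusted p under 0.05 in limma, where the smallest was 0.650 and 747 genes had an unadjusted p under 0.05. Within the F125 pairs 130 genes were called for the day (0.97 %), and within the F75 pairs 315 genes (2.35 %), an analysis added after seeing the data. Neither level had a gene at an adjusted p under 0.05 in limma, with smallest values of 0.653 (F125) and 0.229 (F75). Dim genes made up 97 of the 130 and 164 of the 315.

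Some genes of lipid handling, picked for their difference by feeding, serve as examples. APOA4, an apolipoprotein of triglyceride-rich particles chosen after its values were seen, was at 1.45 and 1.71 in the B5F125 and B4F125 pairs, against −0.15 and −0.63 in the B5F75 and B4F75 pairs. The difference was 1.97 (SE 0.49). ANGPTL4, an inhibitor of lipoprotein lipase induced by fatty acids, was at 0.59 and 0.85 in the F125 pairs, against −0.82 and −0.79 in the F75 pairs, with a difference of 1.52 (SE 0.44). PLIN2, the coat protein of lipid droplets, was at 1.23 and 0.22 in the F125 pairs, against −0.80 and −0.76 in the F75 pairs, with a difference of 1.502 (SE 0.46).

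ANGPTL4 and PLIN2 were also chosen for this difference, and the lipid lists showed less of it, with 15 of 23 differences positive and 1 called for apolipoproteins and lipoprotein assembly and 19 of 30 positive and none called for fatty acid and triglyceride synthesis. These 3 genes were positive in the F125 pairs and negative in the F75 pairs, which left their values over all 4 pairs near 0 for ANGPTL4 at −0.04 and PLIN2 at −0.03. GK, glycerol kinase, which feeds glycerol into glucose, was at 2.13 and 1.31 in the F125 pairs, against −0.21 and −0.11 in the F75 pairs, with a difference of 1.88 (SE 0.54). HP had a difference of 3.74 (SE 1.21), with 3.55 (SE 0.86) in the F125 pairs, called, and −0.19 (SE 0.86) in the F75 pairs, but the difference itself was not called.

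By the rule, LIN52 and SLAIN1 were named among the positive differences and KLK8 and 1 LOC number among the negative ones. LIN52, a subunit of a cell cycle repressor complex, was at 0.92 and 0.50 in the F125 pairs, against −0.93 and −1.25 in the F75 pairs, with a difference of 1.80 (SE 0.33). KLK8, a serine protease at a median bound of 17, was at 0.06 and −0.67 in the F125 pairs, against 2.22 and 1.60 in the F75 pairs. SLAIN1 was measured in full in the B5F125 pair only. PLCL2, an inositol phosphate binding protein chosen after its values were seen, was at −0.78 and −0.85 in the F125 pairs, against 1.29 and 1.29 in the F75 pairs, with a difference of −2.11 (SE 0.38).

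Several lists lay apart by feeding as a whole, although none of the members of the 6 lists given here was called. Gluconeogenesis genes had 14 of 14 differences positive with a median of 0.50, fatty acid oxidation genes 30 of 34 with a median of 0.38, hepatocyte markers 18 of 19 with a median of 0.56 and acute phase genes 27 of 30 with a median of 0.64. Ribosomal protein genes had 8 of 72 positive with a median of −0.38, and interferon response genes 6 of 41 with a median of −0.50. Over all genes tested 6990 of 13405 differences were positive, with a median of 0.03. The hepatocyte markers differed in the same sense as the metabolic lists, and their part in those values was not tested. Each feeding level was represented by 4 cows in 2 pairs.

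**Figure D5:**
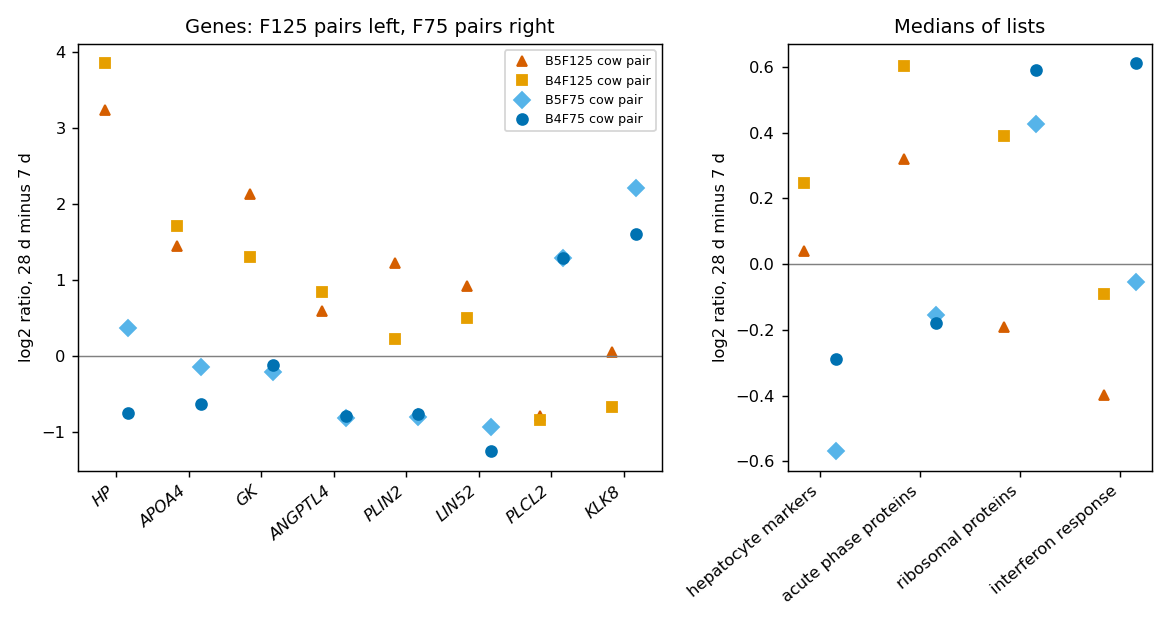
Log2 ratio of 28 d minus 7 d (vertical axes, Cy5 minus Cy3 reading) of 8 genes and the medians of 4 lists, with the pairs fed 125 % of requirements left and those fed 75 % right. APOA4, GK, ANGPTL4, PLIN2 and LIN52 lie above 0 in both F125 pairs and below 0 in both F75 pairs, and PLCL2 lies the other way round.

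Body condition was tested in the same way, as the difference between the B5 and the B4 pairs, and 154 genes were called (1.15 %), 131 positive and 23 negative, with 0 at an adjusted p under 0.05 in limma, a smallest adjusted p of 0.0713 and 601 genes at an unadjusted p under 0.05. On the arrays that hold 28 d and 7 d together, 28 d was in Cy3 in both B5 pairs and in Cy5 in both B4 pairs, so the fit separated dye from body condition only through the other 2 arrays of each pair. With dim values left out 18 genes were called, 10 positive and 8 negative. GHR, the growth hormone receptor, a leading member of the growth hormone and IGF list and not among the genes of lowest p, was called, with 0.97 and 1.55 in the B5F125 and B5F75 pairs, against −0.69 and −0.63 in the B4F125 and B4F75 pairs. The difference was 1.92 (SE 0.36, adjusted p = 0.30 in limma). The genes of lowest p, C18H16orf46, MXRA5, CD1B and HPCAL4, had median bounds of 4 or 5.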

How the data were processed

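RNA of liver biopsies had been labelled with Cy3 or Cy5 and hybridised to a 2-colour Agilent bovine array. Per the methods, the authors scanned the slides with GenePix, dropped poor spots and later adjusted the data for dye and array (lowess, array centring). The deposited values are 1 log2 ratio per spot and array, here between −8.496 and 8.805, and their array medians lie between 0.116 and 0.394, not at 0. The genome build is not given in the sources used here. A further 48 value columns carry slide names that fit no label and stayed unused. Gene names lack the digit 0, and 462 of 16628 names were restored from the RefSeq bovine gene table. Left out were 302 ambiguous names and 25 that had become dates. Another 465 names, ZNF836 among them, were not in that table and were kept as written. The direction of the ratio is stated nowhere. With Cy5 minus Cy3, 319 of 416 genes (76.7 %) listed for an effect of feeding had the listed sign on the 36 arrays within a day, and the mean log2 ratios of the 12 and the 36 arrays correlated at 0.40 across 10804 genes.

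Arrays were centred on the median, probes of a gene averaged, and genes with values on at least 9 of 12 arrays fitted in limma 3.58.1 (R 4.3.3) with steps between days and dye as terms and cow pair as a random block (duplicateCorrelation, eBayes). The same-numbered arrays of a pair come from the same 2 cows, which is the pairing used. Genes were called at p of at most 0.01 and FC of at least 1.5, with Benjamini-Hochberg adjustment beside it. Interactions with feeding and BCS used the same fit. The value of a pair is the array with 28 d and 7 d minus the mean of its 3 arrays. The scripts were tested on simulated data. Alternatives changed centring, scaling, block, dye, filters, probes, weights, moderation and the arrays or pairs used. Leaving out dim values, lowess on the recovered intensities and the analysis within feeding levels were added after seeing the data.

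Named genes were the 15 with the smallest p in each direction among called genes, the leading 3 tested members and called members of each list, and, for each interaction, the 2 called genes of lowest p on either side. Others are said to be chosen after their values were seen. Members and lists were chosen with earlier results of these data known. Some genes that this rule names are not reported here.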

Additional observations from a re-analysis of the deposited data

Results flagged for a closer look

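In 10 of 170 genes with 4 pairs and in 1 of 43 list medians, 1 cow pair lay far from the other 3 in the difference between 28 d and 7 d, where chance gives such a pair in about 1 in 20 groups. The pair apart was B4F75 for IGDCC4 at 1.17, SAA3 at −0.21, SRXN1 at 2.09 and MX1, an antiviral GTPase, at 0.67. It was B4F125 for FOS, an immediate early transcription factor, at 0.85, FTH1 at 0.45, IDH2, an isocitrate dehydrogenase, at 0.89 and the median of the propionate list at 0.084. It was B5F125 for the clock gene PER1 at −0.68 and for BHMT, which remethylates homocysteine, at 0.86, and B5F75 for FASN at −0.21.

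The difference between 28 d and 7 d differed between feeding levels (F125 minus F75, limma interaction, unadjusted p no higher than 0.01, FC no smaller than 1.5) for GPD2 at 1.18, GK at 1.88, SLAIN1 at 3.92, APOA4 at 1.97, LIN52 at 1.80, ANGPTL4 at 1.52 and PLIN2 at 1.502, and for ADCY8, an adenylyl cyclase, at −1.98, KLK8 at −2.21 and PLCL2 at −2.11. It differed between body conditions (BCS5 minus BCS4) for GHR at 1.92, C18H16orf46 at 6.47 and MXRA5 at 2.46, and for HPCAL4 at −3.13 and CD1B at −3.12. None of these had an adjusted p under 0.05. C18H16orf46, MXRA5, HPCAL4, CD1B and SLAIN1 had median bounds of 4 or 5.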

How the results depend on the processing

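The 145 genes called between 28 d and 7 d became 330 with each probe on its own, 220 with array quality weights, 60 without moderation of the variance and 68 with dim values left out, and 102 to 161 when a cow pair was left out, the lowest without B5F75. Without the replicate block 119 were called, and with the cow pair as a fixed effect 150. The count at an adjusted p under 0.05 was 1 with all 48 arrays, ZNF836, and 0 in the other alternatives. The 4 arrays that hold both days gave 62 positive and 103 negative genes. The 141 genes called for feeding became 92 without the replicate block, 286 with each probe on its own and 75 with dim values left out, and 78 (without B4F125) to 339 (without B5F75) when a pair was left out, with 249 without B4F75. The 154 called for BCS became 87 with genes on all 12 arrays, 501 with array weights, 89 without moderation and 18 with dim values left out, and 113 to 353 when a pair was left out, with 353 without B4F75 and 293 without B4F125. The cause of these changes was not tested. With each probe on its own, a gene was followed through 1 probe, the one with values on the most arrays or the first of several. On that probe RPL28 turned to −0.043, RPLP0 to −0.079, CYP3A4 to 0.096, XBP1 to −0.019 and CPS1 to 0.0041. On the 4 arrays with both days ALB turned to 0.090, SOD2 to 0.053, CAT to 0.054 and OTC to 0.11. Of 3291 values of 188 genes followed, 205 others changed sign by less than 1 SE and without a call. Of 41 called genes, 14 lost the call without the B5F125 pair, 17 without B5F75, 16 without B4F125 and 13 without B4F75. None of these changed sign. More lost it on the 4 arrays that hold both days, where 26 of the called genes lost the call and 11 kept it. The 4 arrays and all 48 arrays could not give the interactions. Few cow pairs, dim probes and the unstated direction of the ratio limit what can be read from these values.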
